A study of Mus musculus with 3 samples.

Results

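The clade B serpins are the genes whose symbols start with Serpinb, and every such gene in the deposited matrices was taken: 28 of 33696 genes, 12 on chromosome 1 and 16 on chromosome 13. They were followed in back skin from the depilated (wax-stripped) area of female C57BL/6 animals aged 9 weeks, by droplet single-cell RNA sequencing (GEM-X 3′ chemistry, in which each unique molecular identifier, UMI, marks 1 captured transcript). Of the 3 groups, Cont received vehicle, CIA was a model of hair loss caused by chemotherapy, and CIA+VFX was the same model plus venlafaxine, a serotonin and noradrenaline reuptake inhibitor. The labels name no chemotherapy drug, dose or day. The skin of several animals, how many is not given, was pooled into 1 library per group, so n = 1 and library and treatment cannot be told apart: no difference has a replicate check, and the intervals below are 95% exact intervals that cover counting error only.

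After filtering and doublet removal 11904, 15401 and 15372 cells were kept in Cont, CIA and CIA+VFX, and between 48 and 79 kept barcodes were shared by any 2 libraries. Median depth per deposited barcode was 4923 to 5950 UMIs. Each cell was placed in at most 1 of 28 classes by its own marker genes, with no Serpinb gene among the markers, and 34614 of 42677 kept cells (81.1%) were placed. Such a class is a range of a score rather than a cell type and is called a gate here; 5569 cells (13.05%) lay near a boundary. In 20 gates every library had at least 50 cells, and these were compared. No gate had more markers of another class than of its own among its 10 leading genes, but the basal and the other T gate had 0 of their own. Cells of 2 gates scored higher on the basal list than on their own. In Cont, CIA and CIA+VFX the companion layer medians were 0.366, 0.355 and 0.361 against 0.621, 0.612 and 0.544. Those of the bulge and outer root sheath gate were 0.315, 0.329 and 0.325 against 0.545, 0.579 and 0.570. The interleukin-17 gamma delta T gate scored close to its own level on the other T list, with own medians of 0.567, 0.584 and 0.574 against 0.512, 0.588 and 0.560. The basal gate was led by Itga2, Kcnb2 and Anln and the other T gate by Klra1, Themis and Nkg7, and the Langerhans, neutrophil, mast, basophil, natural killer, B and plasma, Schwann and erythroid gates were too small to compare.

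Clade B serpins lack a classical secretion signal and act mostly inside cells. A protease that cuts the exposed reactive centre loop of an inhibitory serpin is trapped in a covalent complex, so the serpin is used up as it works. In skin they are known mainly from stratified epithelium, where several restrain cathepsins and other proteases that leak during cornification, and from cytotoxic lymphocytes and granulocytes, which they shield from their own granule enzymes. The mouse genes lie in 2 clusters, and several groups (Serpinb1, Serpinb3, Serpinb6 and Serpinb9) were multiplied in rodents.

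Upstream sequences are shown first because many chromosome 1 members hold a motif that the selection did not use. In the RefSeq promoter table (GRCm38.p6; the deposited counts were made on GRCm39, so these coordinates apply to the table only), 26 of the 28 members had at least 1 window, and the 250 bases before each annotated start were searched on both strands for 6 motifs. The letters TGANTCA are a loose form of the AP-1 site, with any base at N, so a match need not be such a site. No share was computed for a stricter form. They occurred in 8 of 13 chromosome 1 windows (61.5%), in 0 of 19 chromosome 13 windows and in 6.75% of all 32851 windows. Both windows of Serpinb2 count the same bases, so by gene the match was in 7 of 11 on chromosome 1 (63.6%), against 7.82% of 27025 genes. The 7 genes with it were Serpinb5, Serpinb12, Serpinb11, Serpinb7, Serpinb2, Serpinb10 and Serpinb8, and TATAAA was found in 9 of 13 chromosome 1 windows and 12.4% of all windows. On chromosome 1 the other motifs were found in 0 windows (an NF-kB form), 3 windows (CCAAT), 0 windows (GCCNNNGGC, an AP-2 form) and 8 windows (CANNTG, the E-box), against 1.41%, 33.8%, 13.7% and 66.2% of all windows. All lines below read 5′ to 3′ on the plus strand with the TGANTCA match in capitals, and Serpinb2 is given for its whole window with its TATAAA in capitals too.
Serpinb12, chr1:106934377-106934436: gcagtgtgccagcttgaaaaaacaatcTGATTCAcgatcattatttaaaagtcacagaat
Serpinb7, chr1:107422617-107422676: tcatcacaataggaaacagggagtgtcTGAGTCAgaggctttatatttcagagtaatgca
Serpinb10, chr1:107528922-107528981: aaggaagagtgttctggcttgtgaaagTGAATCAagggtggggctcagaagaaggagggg
Serpinb8, chr1:107589946-107590005: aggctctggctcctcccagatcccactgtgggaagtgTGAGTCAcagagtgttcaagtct
Serpinb11, chr1:107362211-107362270: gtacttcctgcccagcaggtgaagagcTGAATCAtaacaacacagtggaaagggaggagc
Serpinb5, chr1:106861008-106861067: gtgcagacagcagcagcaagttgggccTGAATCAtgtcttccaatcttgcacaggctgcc
Serpinb2, chr1:107511173-107511422: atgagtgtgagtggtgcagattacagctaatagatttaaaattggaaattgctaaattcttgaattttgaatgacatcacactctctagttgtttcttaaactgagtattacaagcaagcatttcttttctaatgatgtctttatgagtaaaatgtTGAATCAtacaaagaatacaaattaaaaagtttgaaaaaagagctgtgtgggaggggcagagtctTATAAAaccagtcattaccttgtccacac
In the stretch shown the match began 23 bases before the annotated start in Serpinb8, 45 in Serpinb12 and Serpinb7 and 140 in Serpinb5. The base at N was G in the stretches of Serpinb7 and Serpinb8 and A or T in the others. A match is a string of letters, and no binding was measured here.

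The Serpinb3 copies had no TGANTCA and are shown for their likeness, which matters for counting. Aligned without gaps, the windows of Serpinb3a and Serpinb3b were the same at 209 of 226 bases (92.5%), those of Serpinb3b and Serpinb3c at 229 of 240 (95.4%), and those of Serpinb3a and Serpinb3d at 35.7%. The stretches of 120 bases below are on the minus strand, with the 9 bases that differ in capitals.
Serpinb3a, chr1:107052328-107052447: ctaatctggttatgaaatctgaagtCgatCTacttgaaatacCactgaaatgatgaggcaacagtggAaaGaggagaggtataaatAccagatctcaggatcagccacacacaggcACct
Serpinb3b, chr1:107161115-107161234: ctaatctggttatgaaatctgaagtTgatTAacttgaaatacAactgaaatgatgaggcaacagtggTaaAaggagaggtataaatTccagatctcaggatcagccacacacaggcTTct
At the 3′ end, where these libraries are read, only exact sharing of stretches was counted. That measure differs from the identities above, so the 2 ends cannot be compared by it. Of the stretches of 90 bases in the last 500 bases of GENCODE vM21 transcripts, Serpinb3a, Serpinb3b, Serpinb6c, Serpinb6d and Serpinb6e shared 0 with any other gene. Among described members Serpinb2 alone shared any, 18.7% with transcripts of its neighbour Serpinb10. How reads that match 2 genes were counted is not given in the sources used here, so the split between Serpinb2 and Serpinb10 is uncertain, and likewise among Serpinb9d, Serpinb9e, Serpinb9f and Serpinb9g. No transcript of Serpinb9h was compared.

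The 28 members had 224143 UMIs in kept cells, 0.0599% of all. Serpinb5, Serpinb6a and Serpinb2 gave 79.7% of these (81635, 55240 and 41795 UMIs). With a minimum of 50 UMIs, 20 members could be described, 10 on each chromosome. Of the others, Serpinb9f and Serpinb9h had 0 UMIs, and Serpinb3c, Serpinb3d, Serpinb9c, Serpinb9d, Serpinb9e and Serpinb9g had 1 to 17. Levels below are CPM, each gene's UMIs scaled by all UMIs of the gate and library. They are compared between gates and libraries, not between genes, since capture can differ from gene to gene.

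The genes of the 2 chromosomes were highest in different places. All 10 described chromosome 1 members had their highest mean level over the 3 libraries in a keratinocyte gate. On chromosome 13 a keratinocyte or sebocyte gate was highest for 4 of 10, Serpinb1c, Serpinb6d and Serpinb6e in the sebocyte gate and Serpinb6c in the suprabasal gate. The 6 others were highest in immune, endothelial or muscle gates.

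**Figure D1:**
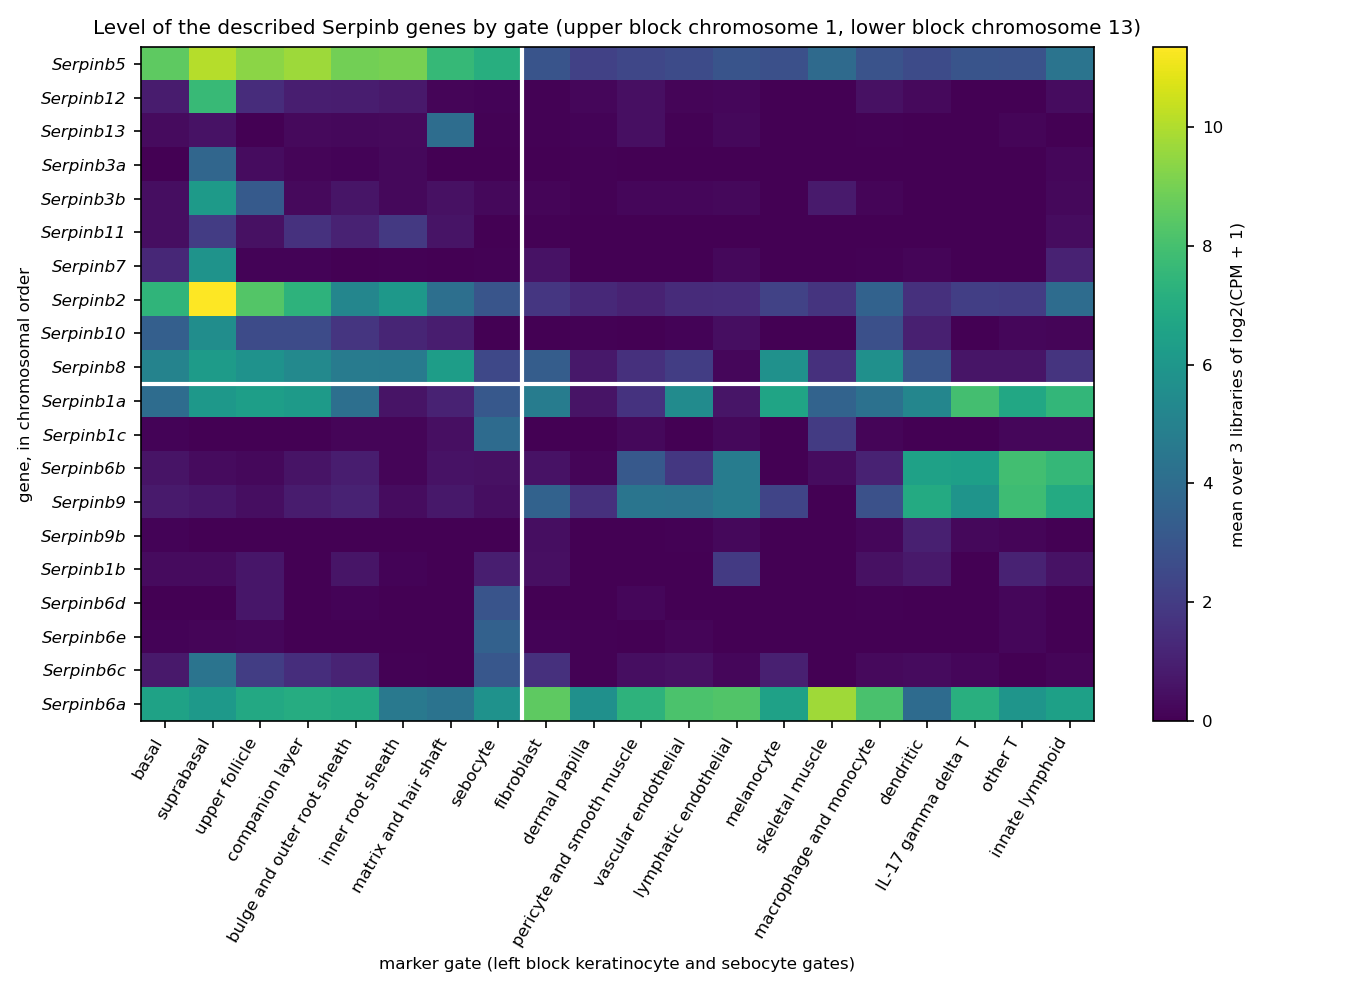
Each cell of the map is the mean over the 3 libraries of log2(CPM + 1) for 1 of the 20 described Serpinb genes (rows, in chromosomal order, chromosome 1 above the white line) in 1 of the 20 compared gates (columns, keratinocyte and sebocyte gates left of the white line). The chromosome 1 genes are brightest in the left block, most of them in the suprabasal column, while Serpinb1a, Serpinb6b, Serpinb9 and Serpinb6a on chromosome 13 are bright in the right block.

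Serpinb5 (maspin, a serpin that does not inhibit proteases and is named for tumour suppression) marked every keratinocyte gate in every library. Its mean level was 1087 CPM in the suprabasal, 826 in the companion layer and 671 in the upper follicle gate. The lowest keratinocyte values were in the matrix and hair shaft gate, at 226, 164 and 202 CPM in Cont, CIA and CIA+VFX. Outside the epithelium it was at 5.77 to 8.24 CPM in fibroblasts and 2.78 to 4.82 CPM in dermal papilla cells, the level against which free RNA can be judged. Over 60 profiles (20 gates in 3 libraries) the genes most like it by Pearson r of log2(CPM + 1) were Dsc3 (0.981), Dsp (0.979) and Perp (0.973), all desmosome genes. The profiles share libraries and depth, so r is a description.

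Serpinb2 (plasminogen activator inhibitor 2, an inhibitor of urokinase that stays largely in the cell) was highest in the suprabasal gate in every library, at 1725 CPM in Cont (1645 to 1807), 2971 in CIA (2894 to 3049) and 3446 in CIA+VFX (3378 to 3515). There it had UMIs in 79.4%, 88.3% and 88.8% of cells. In dermal papilla cells, which should lack it, the shares were 2.04%, 1.64% and 3.07%, at median depths of 9842, 5044 and 5643 UMIs against 13168, 17294 and 14759 in the suprabasal gate. The next gates by mean level were the upper follicle (350 CPM) and the basal gate (190 CPM). In the basal gate the level came from few cells: 10.8%, 10.8% and 13.3% of cells had any of its UMIs in Cont, CIA and CIA+VFX. Its most alike genes over the same 60 profiles were Il36rn (0.913), Chit1 (0.908) and Cwh43 (0.904).

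Several other chromosome 1 members were highest in the suprabasal gate. Serpinb12, an inhibitor of trypsin-like proteases, was at 74.1, 290 and 351 CPM in the suprabasal gate of Cont, CIA and CIA+VFX and at a mean of at most 1.73 CPM in any other gate. Serpinb3a and Serpinb3b, the counterparts of the human squamous cell carcinoma antigens, and Serpinb7 (megsin, whose loss in people causes a thickened palm and sole skin) were likewise highest there, with means of 26.5, 84.7 and 66.7 CPM. Serpinb3b was also measured in the upper follicle gate, at 0.454, 29.6 and 17.1 CPM in Cont, CIA and CIA+VFX, where Cont had 1 UMI.

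Serpinb13 (headpin, an inhibitor of cathepsins L and K) had its highest level in the matrix and hair shaft gate. It was at 16.4 CPM in Cont, 14.1 in CIA and 16.7 in CIA+VFX, from 41, 15 and 42 UMIs, and at a mean of 0.708 CPM in the suprabasal gate. Its level in CIA was 1.16-fold lower than in Cont with an interval of 0.628 to 2.26, so a difference was not detectable at this depth. Serpinb8, an inhibitor of furin, had its highest mean in that gate too but was broad: 71.2 to 85.7 CPM in matrix and hair shaft, 69.1 to 77.1 in suprabasal and 44.5 to 55.0 in macrophage and monocyte cells. Serpinb11 was low everywhere, with means of 4.88 CPM in the suprabasal and 3.19 in the inner root sheath gate.

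On chromosome 13, Serpinb6a (a cathepsin G inhibitor whose loss causes deafness) was found at high levels in many gates. It was highest in skeletal muscle (1023, 913 and 633 CPM in Cont, CIA and CIA+VFX), then in fibroblasts (332, 412 and 362), lymphatic endothelium and vascular endothelium. Among the genes most like it were 1110046J04Rik (r 0.802) and Sh3glb1 (0.700).

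Serpinb9, which blocks granzyme B and protects cytotoxic cells from it, and Serpinb6b, reported to block granzyme A, shared their gates, with r 0.910 over the 60 profiles. Among compared gates both were highest in the other T gate. Serpinb9 was there at 266, 226 and 194 CPM and Serpinb6b at 218, 248 and 250 CPM in Cont, CIA and CIA+VFX. In natural killer cells, of which there were 192, 37 and 60, Serpinb9 was at 1710, 1348 and 1825 CPM and Serpinb6b at 1218, 1321 and 1359. Serpinb9b, a granzyme M inhibitor, was at a mean of at most 2.31 CPM in any compared gate but in natural killer cells at 207 CPM in Cont (254 UMIs), 27.4 in CIA (5 UMIs) and 125 in CIA+VFX (29 UMIs). In dermal papilla cells Serpinb6b had 1 UMI in each library and Serpinb9 was at 1.68 to 2.27 CPM.

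Serpinb1a (an inhibitor of neutrophil elastase, proteinase 3 and cathepsin G) was highest among compared gates in interleukin-17 gamma delta T cells, at 276, 234 and 227 CPM. It was far higher in 2 small granulocyte gates. In mast cells, of which there were 12, 22 and 34, it was at 1897, 4062 and 4490 CPM with UMIs in 11, 22 and 33 of them. In basophils of CIA and CIA+VFX it was at 1222 and 988 CPM (112 and 102 cells), and 7 basophils in Cont gave 2 UMIs. In neutrophils, of which there were 24 in Cont, it had 0 UMIs in Cont, which allows up to 54.9 CPM, and was at 32.2 and 32.3 CPM in CIA and CIA+VFX.

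The first question was how members differed in the model. Of 94 measured pairs of a Serpinb gene and a gate (at least 50 UMIs over both libraries), 21 were at least 2-fold higher in CIA than in Cont, against 3.87% of the 166993 pairs of all genes. At least 2-fold lower were 5, against 2.92%. As shares these were 22.3% and 5.32%, and the median log2 ratio was 0.17 for members and 0.05 for all genes. The 21 higher pairs came from 11 genes, some of them in several gates, so they are not separate events. Of these pairs 17 were in keratinocyte and sebocyte gates, and all 26 called pairs had intervals that left out 1. The share over all genes pools the gates, among which it ran from 1.2% (matrix and hair shaft) to 7.83% (bulge and outer root sheath) for higher calls.

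The suprabasal gate held 6 of the 21, among 11 members measured there, where 4.52% of all genes were called higher and 10.2% lower. Serpinb3a had 1 UMI in Cont (0.975 CPM) and 110 in CIA (58.1 CPM), a ratio of 59.5 (10.5 to 2373), and Serpinb3b was at 32.2 and 148 CPM, 4.59-fold higher (3.19 to 6.80). Serpinb12 was 3.91-fold higher (3.07 to 5.04). The Serpinb3a UMIs of CIA came from 23 of 111 cells and those of Serpinb12 from 49.

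Members of chromosome 13 were higher in CIA in the same gate. Serpinb6c was at 1.95 CPM in Cont (2 UMIs) and 85.5 in CIA (162 UMIs), a ratio of 43.8 (11.9 to 365), and Serpinb1a at 13.7 and 143 CPM, 10.5-fold higher (6.14 to 19.4). The neutrophil marker list summed to 11.7, 80.2 and 91.0 CPM in the suprabasal gate of Cont, CIA and CIA+VFX. Most of it came from S100a8 (0, 7.92 and 44.6 CPM) and S100a9 (10.7, 58.1 and 36.1 CPM), which stand in the squamous keratinocyte list too, and its part in the result was not tested. Serpinb6a was 2.48-fold higher (1.80 to 3.47). The 2 most abundant members differed less: Serpinb2 was 1.72-fold higher (1.63 to 1.82) and Serpinb5 1.11-fold higher (1.03 to 1.20). TMM scaling (trimmed mean of M values) moved all suprabasal log2 ratios of CIA to Cont up by 0.25, which put Serpinb2 past 2-fold (1.04). Serpinb7 went the other way, from 123 CPM in Cont to 33.2 in CIA, 3.69-fold lower (2.71 to 5.08).

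**Figure D2:**
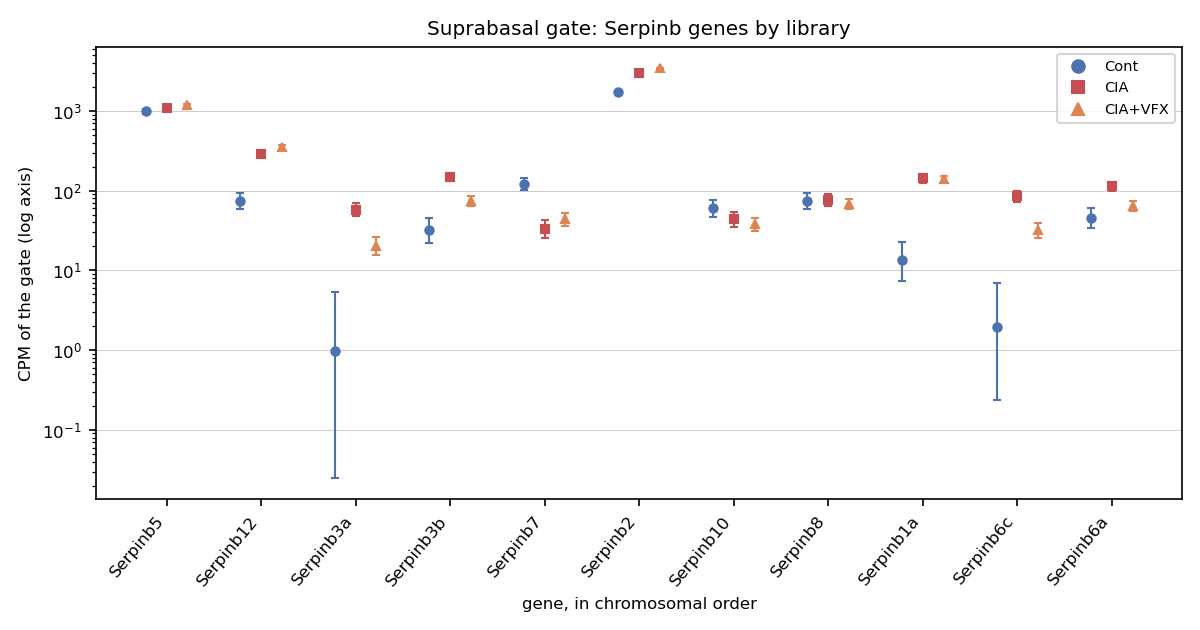
Points are CPM (log axis) of the 11 Serpinb genes measured in the suprabasal gate in Cont (circles), CIA (squares) and CIA+VFX (triangles), 1 library each, and bars are 95% exact Poisson intervals. Serpinb12, Serpinb3a, Serpinb3b, Serpinb1a, Serpinb6c and Serpinb6a lie higher in CIA than in Cont, Serpinb7 lies lower, and Serpinb5 lies between 988 and 1177 CPM in all 3.

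The suprabasal gate itself differed between libraries, with 63, 111 and 178 cells in Cont, CIA and CIA+VFX. Its markers of late differentiation were highest in Cont: Lor was at 150, 2.64 and 24.4 CPM and Flg2 at 81.9, 0 and 0.708. Krt77 was at 4506, 578 and 2688 CPM and Krt1 at 1940, 9826 and 7165. The companion layer marker list summed to 160, 5649 and 1718 CPM in it. The part of these differences in the Serpinb levels was not tested. With a gate that used neither Lor nor Flg2, an alternative chosen after seeing the data, the log2 ratio of CIA to Cont was 1.92 for Serpinb12 against 1.97, and 5.84 for Serpinb3a against 5.90.

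Beyond the suprabasal gate, Serpinb2 was higher in CIA in gates of the follicle wall. It was at 73.4 CPM in Cont and 294 in CIA in the companion layer gate, 4.01-fold higher (3.35 to 4.83), and at 15.02 and 68.1 CPM in the bulge and outer root sheath gate, 4.53-fold higher (3.78 to 5.46). In the basal gate it was at 89.0 and 179 CPM, 2.01-fold higher (1.89 to 2.15), and with cell types taken from clusters the log2 ratio there was 0.31 against 1.01. TMM scaling shifted the log2 ratios of CIA to Cont in the basal gate by -0.086, which put Serpinb2 below 2-fold there. The basal gate itself differed between libraries, and its own marker list summed to 3467, 5914 and 4769 CPM in Cont, CIA and CIA+VFX. Of that list Krt14 was at 899, 2535 and 1805 CPM and Itga6 at 904, 727 and 623 CPM. In the same gate the suprabasal list summed to 129, 270 and 226 CPM and the inner root sheath list to 601, 352 and 530 CPM. The part of these differences in the Serpinb levels was not tested. Serpinb2 was lower in CIA in macrophages and monocytes, at 26.2 and 6.03 CPM, and in matrix and hair shaft cells, at 41.9 and 16.0 CPM. In the matrix and hair shaft gate the Serpinb2 UMIs of Cont came from 9 of 182 cells and those of CIA from 3 of 122. The log2 ratio there was -1.39, but 1.33 after thinning to 2000 UMIs per cell and 0.075 as a mean over cells.

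**Figure D3:**
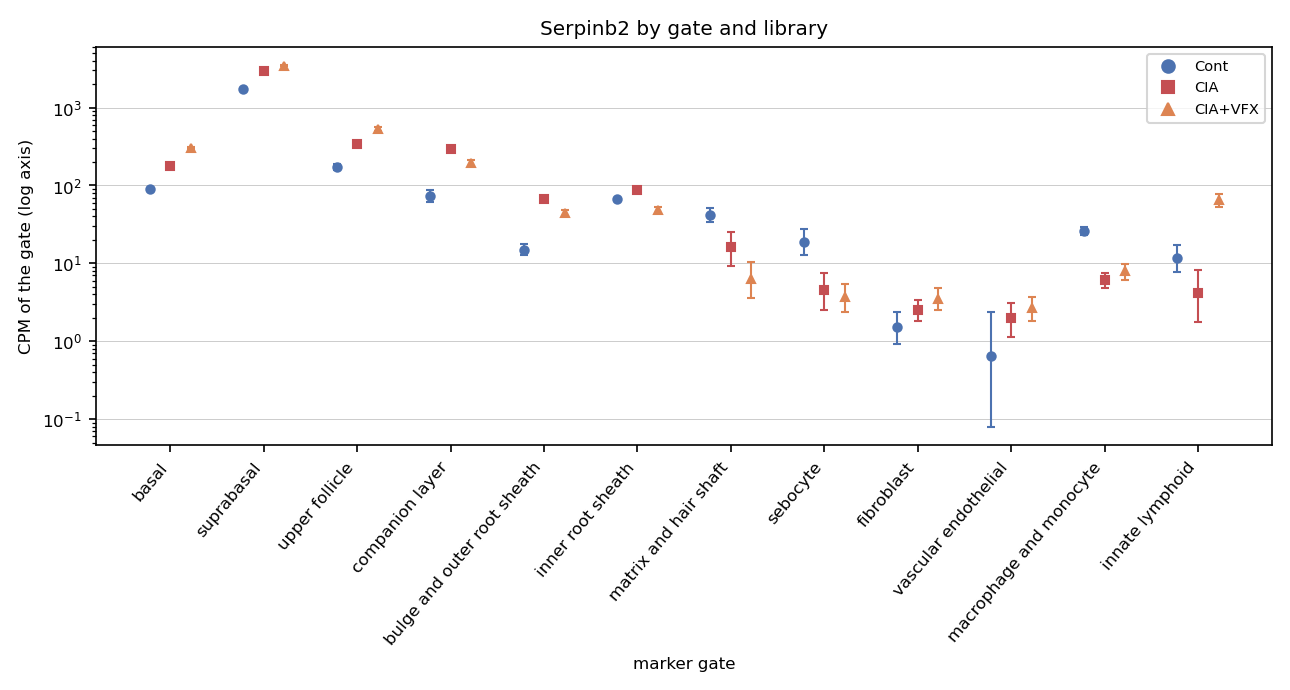
Points are Serpinb2 CPM (log axis) in the 12 gates with at least 50 of its UMIs, in Cont (circles), CIA (squares) and CIA+VFX (triangles), 1 library each, with 95% exact Poisson intervals. CIA and CIA+VFX lie above Cont in the basal, suprabasal, upper follicle, companion layer and bulge gates and below it in the matrix, sebocyte and macrophage gates.

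Serpinb1a was also higher in CIA in the basal gate (4.65 and 33.7 CPM, 7.25-fold, 5.72 to 9.29), the bulge and outer root sheath gate (7.51 and 30.6 CPM, 4.07-fold) and melanocytes (63.6 and 145 CPM, 2.27-fold). In the basal gate 46 of 1351 Cont cells and 112 of 1515 CIA cells had a UMI of Serpinb1a, and with cell types taken from clusters its log2 ratio was 1.99 against 2.86. Serpinb1a is also a gene of granulocytes. In the basal gate of Cont, CIA and CIA+VFX the neutrophil marker list summed to 2.95, 16.5 and 8.32 CPM. The mast list summed to 21.0, 18.3 and 18.3 CPM there and the basophil list to 0.907, 1.60 and 1.20 CPM. In the bulge and outer root sheath gate the neutrophil list summed to 1.68, 13.1 and 9.23 CPM. Their part in the result was not tested. Serpinb10 (bomapin, a nuclear member known from blood cell precursors) was at 5.44 and 12.6 CPM in the basal gate of Cont and CIA, 2.31-fold higher (1.79 to 3.004). With cell types taken from clusters its CIA+VFX to Cont log2 ratio in that gate was -1.30 against 1.26.

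Of 5 members measured in the sebocyte gate 3, all Serpinb6 copies, were at least 2-fold higher in CIA and 0 lower, against 4% and 8.06% of all genes there. Serpinb6e was at 1.27 CPM in Cont (2 UMIs) and 53.9 in CIA (179 UMIs), a ratio of 42.4 (11.6 to 353), but 8 of 137 CIA cells held all of those UMIs. Serpinb6a was 2.14-fold higher (1.60 to 2.91), at 35.6 and 76.2 CPM. Serpinb6c was at 1.91 CPM in Cont (3 UMIs) and 17.2 in CIA (57 UMIs). Median depth in the gate was 13103, 22842 and 12178 UMIs, and thinned to 2000 UMIs per cell the log2 ratio of Serpinb6e was 2.57 against 5.41.

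Of the 5 pairs that were lower in CIA, 3 were in immune gates. Serpinb9 in dendritic cells was at 215 CPM in Cont and 60.9 in CIA, 3.53-fold lower (2.96 to 4.24), and in macrophages and monocytes at 9.98 and 3.20 CPM. Serpinb6b, in contrast, was 2.07-fold higher (1.77 to 2.41) in innate lymphoid cells, at 118 and 244 CPM. The natural killer marker list summed to 188 CPM in the innate lymphoid gate of Cont and to 219.9 in that of CIA, and its part in the result was not tested.

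The second question was how members differed with venlafaxine in the model. Of 102 measured pairs, 7 were at least 2-fold higher in CIA+VFX than in CIA, against 1.23% of all pairs, and 6 were at least 2-fold lower, against 0.942%. The median log2 ratio was -0.05 for members and 0.01 for all genes. Of the 6 lower pairs 5 were in keratinocyte and sebocyte gates, and of the 7 higher pairs 2. The 7 higher pairs came from 5 genes, and so did the 6 lower ones.

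In the suprabasal gate 0 of 11 members were at least 2-fold higher in CIA+VFX than in CIA and 2 were lower, where 2.26% and 1.81% of all genes were. Serpinb3a was at 20.5 CPM, 2.83-fold lower than in CIA (2.04 to 3.96), Serpinb6c at 31.9 CPM, 2.68-fold lower (2.06 to 3.51), and Serpinb3b at 74.0 CPM, 1.997-fold lower (1.66 to 2.40). Serpinb12 at 351 CPM and Serpinb2 at 3446 CPM were instead 1.21-fold (1.09 to 1.35) and 1.16-fold (1.12 to 1.20) higher. Thinned to 2000 UMIs per cell, the log2 ratio was -0.68 for Serpinb3a against -1.50, and Serpinb6c too was less than 2-fold lower. Over all gates 0 of 60 measured pairs were at least 2-fold lower after thinning, with no share over all genes given for that setting. Serpinb1a was at 140 CPM, a 1.03-fold lower value whose interval of 0.875 to 1.20 takes in 1. Serpinb7 was at 43.9 CPM, 1.32-fold higher (0.968 to 1.82).

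In the sebocyte gate Serpinb6e was at 11.4 CPM, 4.74-fold lower than in CIA (3.59 to 6.30), from 14 of 354 cells, while Serpinb6d was at 15.7 against 8.74 CPM. In dendritic cells Serpinb9 was at 130 CPM, 2.14-fold higher than in CIA (1.76 to 2.62), and Serpinb6b at 150 against 59.7 CPM, 2.51-fold higher (2.06 to 3.05). Serpinb6b UMIs were in 11.1% of CIA and 20.9% of CIA+VFX dendritic cells, and in 6.07% and 12.7% after thinning. The thinned log2 ratios were 0.27 for Serpinb9 against 1.10 and 0.67 for Serpinb6b against 1.32, neither past 2-fold. The natural killer marker list summed to 250, 264 and 227 CPM in the dendritic gate of Cont, CIA and CIA+VFX. Serpinb9 was also higher in lymphatic endothelium (19.6 and 45.8 CPM, 2.33-fold) and in macrophages and monocytes (3.20 and 6.70 CPM, 2.09-fold).

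**Figure D4:**
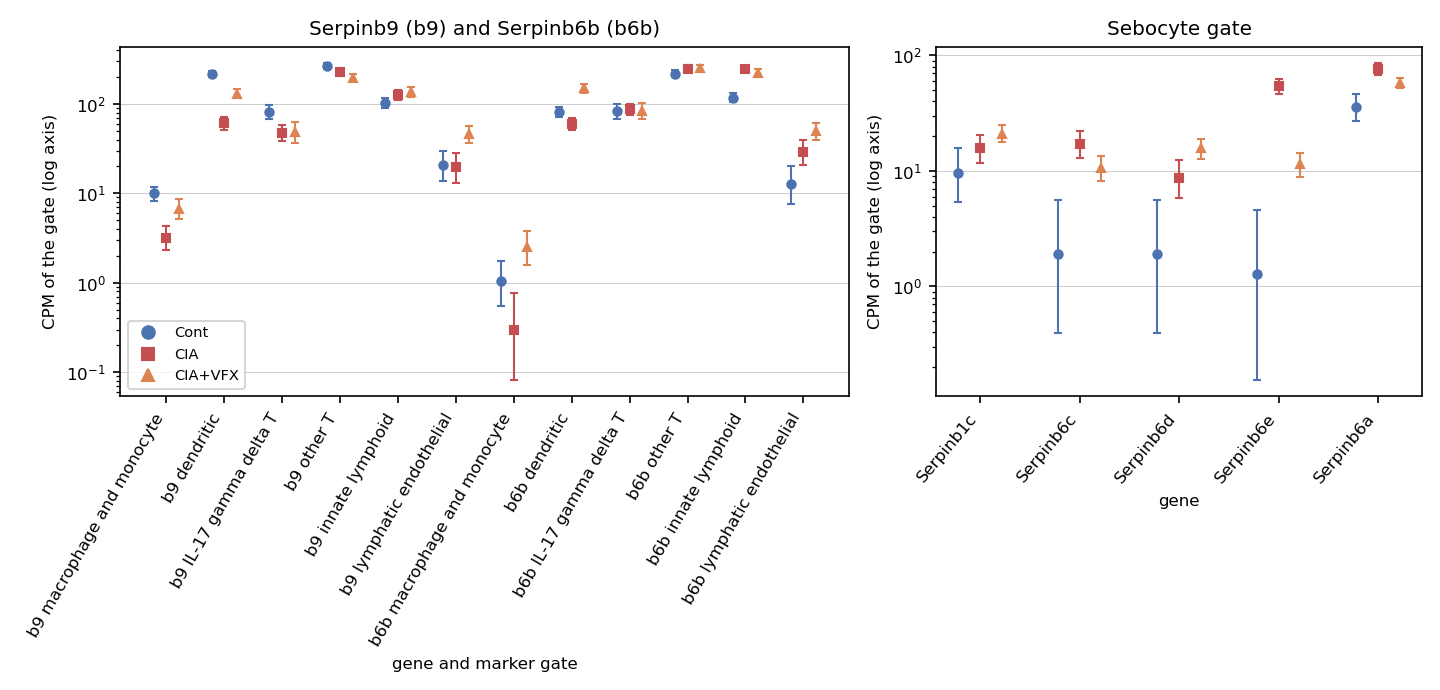
Points are CPM (log axes) in Cont (circles), CIA (squares) and CIA+VFX (triangles), 1 library each, with 95% exact Poisson intervals. The left panel shows Serpinb9 and Serpinb6b in 5 immune gates and lymphatic endothelium, with CIA lowest for both genes in dendritic cells (after thinning Serpinb6b was instead lower in Cont than in CIA), and the right panel shows 5 genes in the sebocyte gate, where Serpinb6e is highest in CIA.

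Serpinb2 in innate lymphoid cells was at 11.8, 4.13 and 64.3 CPM in Cont, CIA and CIA+VFX, but 14 of 365 cells carried all of its UMIs in CIA+VFX. Under cell types taken from clusters the CIA+VFX to Cont log2 ratio there was -0.16 against 2.45.

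The third question was what remained apart from vehicle-treated skin; this comparison shares its libraries with both others. Of 98 measured pairs 27 were at least 2-fold higher in CIA+VFX than in Cont, against 3.61% of all pairs, and 4 were at least 2-fold lower, against 2.31%. The 27 came from 15 genes, and the interval left out 1 in 26 of them. In the suprabasal gate, where 3.83% of all genes were called higher and 7.97% lower, 5 of 11 members were higher and 1 was lower. Serpinb12 was 4.74-fold higher (3.75 to 6.07), Serpinb1a 10.2-fold (6.02 to 18.9) and Serpinb3b 2.30-fold (1.59 to 3.43). The neutrophil list was there at 11.7 CPM in Cont and 91.0 in CIA+VFX, and its part was not tested. Serpinb7 was 2.80-fold lower (2.17 to 3.61).

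Serpinb2 exceeded Cont by 3.38-fold in the basal gate (3.20 to 3.58), at 301 CPM, and by 3.07-fold in the upper follicle gate (2.75 to 3.44), at 532 CPM. The basal value rests on the gate: with cell types taken from clusters its log2 ratio was -0.13 against 1.76. In the companion layer gate it was at 193 CPM, 2.62-fold higher than Cont (2.17 to 3.19), from 13 of 189 cells, and with a stricter gate its log2 ratio was -1.12 against 1.39. In the sebocyte gate Serpinb1c was at 9.53, 15.7 and 21.1 CPM in Cont, CIA and CIA+VFX and Serpinb6d at 1.91, 8.74 and 15.7. Both were at least 2-fold higher in CIA+VFX than in Cont, Serpinb1c by 2.21-fold (1.29 to 4.06) and Serpinb6d by 8.23-fold (2.74 to 40.6, from 3 UMIs in Cont).

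Several members stayed within 2-fold in all 3 comparisons in a gate that held many of their UMIs. Serpinb5 in the basal gate was at 365, 409 and 348 CPM, Serpinb6a in fibroblasts at 332, 412 and 362 CPM and Serpinb8 in macrophages and monocytes at 52.8, 55.0 and 44.5 CPM in Cont, CIA and CIA+VFX. Serpinb1a in interleukin-17 gamma delta T cells, and Serpinb9 and Serpinb6b in the other T gate, with the values above, did so too. Serpinb6a in macrophages and monocytes was at 366, 235 and 223 CPM, 1.56-fold lower in CIA than in Cont (1.49 to 1.63).

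Genes that work with or beside these inhibitors were followed as lists in the suprabasal gate. Of 12 squamous and wound keratinocyte genes 11 were measured in CIA against Cont, with 9 at least 2-fold higher and 0 lower (median log2 ratio 5.31), against 4.52% and 10.2% of all genes in the gate, shares that stand beside the next 4 lists too. The extremes were Stfa3, a stefin that inhibits cysteine cathepsins (6.83 and 2877 CPM), and Cnfn (241 and 256 CPM). In CIA+VFX against CIA, where 2.26% of all genes were higher and 1.81% lower, 1 of 12 was higher and 3 lower, among them Krt16, at 3889 CPM in CIA and 1280 in CIA+VFX. The 63 cells of Cont are the base of each of these ratios.

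Lists of proteases and of genes that work beside them, only some of them targets of these serpins, were followed next. Of a list of 9 cathepsins and legumain 6 were measured in CIA against Cont, with Ctsc higher (35.1 and 74.4 CPM) and Ctsl, a target of Serpinb13 and of the Serpinb3 group, lower (110 and 35.4 CPM). Of 12 epidermal serine proteases and their other inhibitors 11 were measured and 2 were higher: the inhibitor gene Wfdc12 (0.975 and 188 CPM) and the kallikrein Klk6 (3.90 and 40.1 CPM). Of the plasminogen activator system 3 of 9 were measured, with 1 higher: Plat, a protease that Serpinb2 can block, at 3.90, 33.8 and 1.06 CPM in Cont, CIA and CIA+VFX. Plau, the main target of Serpinb2, was measured in the basal gate, at 40.01, 21.0 and 33.2 CPM. Of 8 caspase and inflammasome genes 3 were measured, with Casp1 higher (9.75 and 21.6 CPM). In the basal gate 3 of 9 measured serpins of other clades were higher in CIA than in Cont, against 3.89% of all genes in that gate, led by Serpine2 (6.01 and 25.7 CPM).

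Of a list of 8 granzyme and perforin genes, which holds the targets of Serpinb9 and Serpinb6b among others, 4 were measured in the other T gate. In CIA against Cont Gzma was at least 2-fold higher (18.1 and 43.6 CPM) and 0 were lower, where 5.28% and 1.99% of all genes were. Gzmb was at 163, 148 and 100 CPM in Cont, CIA and CIA+VFX. The list of neutrophil, mast cell and basophil proteases, which holds the Serpinb1a targets among others, had 0 of 9 genes measured in the suprabasal gate.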

How the data were processed

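The authors deposited 1 matrix of UMI counts per gene and cell barcode for each library, whole numbers with no normalization, made with Cell Ranger 8.0.1 on GRCm39 after FastQC 0.11.7, per the submitters' processing notes. The libraries held 14529, 17675 and 18987 barcodes in Cont, CIA and CIA+VFX, with medians of 5950, 4977 and 4923 UMIs per barcode. The precision of each level is set by its UMIs and is given as an exact Poisson interval, that of each ratio as an exact conditional binomial interval, both at 95%. PCR error and differences between mice are not covered.

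Cells were required to have 500 or more genes and a mitochondrial share of no more than 15%, and 734, 1172 and 1263 barcodes were removed as doublets by comparison with simulated ones. Each cell was scored on marker genes of 28 cell types and gated at a score of at least 0.3 and a margin of 0.08, with a second step at 0.25. Scores and thresholds were set after seeing the data, H2-Ab1 and Cd74 were taken out of the Langerhans score after a first look, and Krt85 and Cd163l1 are not used here. Counts were summed per gate and library. With 1 library per group no test was made: a call is a 2-fold ratio among genes with at least 50 UMIs over both libraries, and thinning drew 2000 UMIs per cell.

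Named pairs of a gene and a gate were the 30 with the most UMIs among those past 2-fold whose interval left out 1, and the pair with the most UMIs of each of the 20 described genes, 41 in all; other pairs in the text were chosen after their values were seen. The Serpinb genes and the gene lists were chosen with earlier results of these data known. Scaling factors came from edgeR 4.0.16 under R 4.3.3, clusters from scanpy 1.11.5 and igraph 0.11.9, and the rest from Python 3.11.15, numpy 2.4.6 and scipy 1.17.1. The count and ratio steps were tested on simulated data. A gene that the likeness rule names for Serpinb6a is not reported here.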

Additional observations from a re-analysis of the deposited data

Results flagged for a closer look

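Serpinb2 differed from Cont in opposite directions in different gates, past 2-fold on each side, and the difference between gates was not tested. In CIA against Cont its log2 ratio was 1.01 in the basal, 2.004 in the companion layer and 2.18 in the bulge and outer root sheath gate, but -1.39 in matrix and hair shaft cells and -2.12 in macrophages and monocytes. In CIA+VFX against Cont it was 1.76 in the basal, 1.62 in the upper follicle, 1.39 in the companion layer and 1.58 in the bulge gate, 1.21 in fibroblasts and 2.45 in innate lymphoid cells. With cell types taken from clusters 3 of these turned, to -0.13 in the basal, -0.73 in the bulge and -0.16 in the innate lymphoid gate, and with a stricter gate the companion layer value was -1.12. In the same comparison it was -2.72 in matrix and hair shaft cells, -2.37 in sebocytes and -1.73 in macrophages and monocytes. All 30 Serpinb2 UMIs of the Cont sebocyte gate came from 1 cell.

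Serpinb6b in CIA+VFX against CIA had a log2 ratio of 1.32 in dendritic cells and -1.25 in vascular endothelium, and Serpinb7 in CIA+VFX against Cont one of 1.73 in the basal and -1.48 in the suprabasal gate. These differences between gates were not tested either. Serpinb7 in the basal gate rested on 13 UMIs in Cont and 51 in CIA+VFX.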

How the results depend on the processing

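Of 1082 recomputed log2 ratios of named pairs, 892 stayed within their interval, 180 moved beyond it and 10 changed sign. The settings pooled here differed widely. Thinning left 55 the same, moved 49 and reversed 3, a mean over cells 70, 41 and 1, and clusters 53, 31 and 4. Subtracting 5% free RNA left 103 the same and moved 2. With cell types from clusters, CIA+VFX against Cont changed sign for Serpinb2 in the basal (-0.13), bulge (-0.73) and innate lymphoid (-0.16) gates and for Serpinb10 in the basal gate (-1.30); no cluster took the suprabasal class. With a stricter gate it did so for Serpinb2 in the companion layer (-1.12). Thinning gave 1.33 for Serpinb2 in matrix cells and -1.29 for Serpinb6b in lymphatic endothelium (CIA against Cont) and -0.24 for Serpinb5 in vascular endothelium (CIA+VFX against Cont), where leaving doublets in gave -0.29. A mean over cells gave 0.075 for Serpinb2 in matrix cells (CIA against Cont). The cause was not tested.

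Counts of pairs moved with depth, minimum and fold. In the order higher and lower for CIA against Cont, CIA+VFX against CIA and CIA+VFX against Cont, thinning gave 5, 2, 2, 0, 8 and 2 of 51, 60 and 57 measured pairs. A minimum of 10 UMIs gave 43, 17, 15, 18, 45 and 11 of 145, 150 and 149 pairs. One of 200 UMIs gave 12, 2, 2, 2, 10 and 2 of 66, 65 and 64. At 1.5-fold the lower counts were 8, 17 and 12 of 94, 102 and 98 pairs and CIA+VFX against CIA had 16 higher. A stricter gate left 4 of 95 higher in CIA+VFX against CIA. Shares over all genes are given for the main setting only, so these counts cannot be set against them. Low depth limits pairs with 1 to 3 UMIs in Cont, among them Serpinb3a and Serpinb6c in the suprabasal, Serpinb3b in the upper follicle, Serpinb6c, Serpinb6d and Serpinb6e in the sebocyte and Serpinb6b in the vascular endothelial gate. No paired analysis was possible because each group is 1 library.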
